A study of Mus musculus with 12 samples.

Results

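Mouse chromosome 4 was followed along its length in the DNA of 2 primary murine PDAC lines, 15376T and 14837T. Its members are the blocks made when the chromosome was divided at every segment border of either line, 12 of the 377 blocks made in this way over all chromosomes. They hold 4 of the 191 segments of 15376T and 10 of the 235 segments of 14837T. The chromosome was chosen by the deposited log2 values themselves, which put it at 1 copy throughout 15376T and at 1 copy on either side of a spared and gained stretch in 14837T. These log2 values are therefore described and not tested, and with a single exome library for each line no test of a difference could be made.

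Both lines were isolated from tumors of genetically engineered C57BL/6 mice, and each represents a single tumor. The engineered alleles of the mice included p48-Cre, ROSA_rtTA and Trp53 L/+, whereas the sample labels give the genotype of both libraries only as WT. The p48 promoter is active in the developing pancreas, and rtTA switches on its target promoters in the presence of doxycycline, which was in the culture medium of both lines. RNA of these lines and normal mouse DNA were not analysed here.

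A chromosome copy can be lost whole, when it is left behind at division, or in parts, when it breaks and the pieces are joined again. Exome sequencing reads copy number from the number of reads over captured regions, and it reads the balance of the parental alleles from variant sites. Mouse chromosome 4 holds the Cdkn2a and Cdkn2b locus, whose loss is frequent in pancreatic cancer, together with other growth brakes such as Arid1a and Trp73, but also genes that drive growth such as Jun and Mtor. In the tables, log2 is the coverage of a segment set against a copy-number reference that the methods do not name. A clean loss of 1 of 2 copies in every cell would give a log2 of -1, and a gain to 3 copies would give 0.58. The authors called 1 copy at a log2 of -0.25 or below and 3 copies above 0.20. The B-allele fraction (BAF) is the fraction of reads with the alternative allele at variant sites, and bins are the windows over which reads were counted.

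Copy number also covers the microRNA genes of the chromosome. RefSeq places 53 of them (GRCm38.p6) inside the 12 blocks, and all 53 lie at 1 copy in 15376T. In 14837T, 41 were called at 1 copy, 6 at 2 copies and 6 at 3 copies. By length, 72.3%, 21.3% and 6.38% of the chromosome had these calls, so nothing particular to microRNA genes is read from the count. The mature sequences below are a selection from several segments of 14837T, most of them called at 1 copy, with the seed (bases 2 to 8) in capitals. They are given in the order of the chromosome, except for the last 3, which form the miR-200 cluster near its end.
miR-207: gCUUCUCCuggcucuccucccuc
miR-32-5p: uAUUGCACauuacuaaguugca
miR-455-5p: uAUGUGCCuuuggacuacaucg
miR-31-5p: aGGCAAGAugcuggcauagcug
miR-34a-5p: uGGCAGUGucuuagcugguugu
miR-200b-3p: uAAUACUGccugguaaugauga
miR-429-3p: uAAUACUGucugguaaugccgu
miR-200a-3p: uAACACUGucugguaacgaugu

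The mature miR-207 at chr4:40722968-40722990 lay in the first block called at 3 copies in 14837T. The mature miR-32-5p at chr4:56895272-56895293 lay in the spared block called at 2 copies, and miR-455-5p at chr4:63256867-63256888, inside Col27a1, lay 21.6 kb inside the segment where the loss resumed. The genes Mir31, Mir34a, Mir200b, Mir429 and Mir200a were at 1 copy in both lines. The seed of miR-200b-3p and miR-429-3p is the same, and both of these genes share the last block with Mir200a. Mir34a, a target of p53, lay at a log2 of -0.56 in 15376T and -0.39 in 14837T. The amounts of the microRNAs themselves were not measured in these DNA libraries.

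In 15376T, chromosome 4 was low from end to end. The first segment ran over chr4:3173523-146117266, 94.3% of the covered length, at a log2 of -0.59 with 11970 bins and a BAF of 0.084. Beyond a gap of 1.42 Mb without bins, the next segment (chr4:147541026-152699136, 926 bins) lay at -0.56 with a BAF of 0.023. A shorter segment at chr4:152699637-154893410, with 202 bins and no BAF, was the lowest at -0.81, and the last (chr4:154893777-156255511, 490 bins) was the highest at -0.51 with a BAF of 0.22. All 4 segments were called at 1 copy, so that 100% of the covered chromosome was called lost, and the range of log2 within it was 0.29. Among all autosomal segments of this line 23% were called lost (42 of 183). All 3 segments with a BAF were called with 0 copies of the minor allele, a call whose share on the other autosomes was not counted.

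In 14837T the same chromosome was interrupted. The first segment (chr4:3173523-21228255) lay at a log2 of -0.41 and was called at 1 copy. It was followed by chr4:21228256-26340987 at 0.05 and chr4:26341488-40475688 at 0.19, both called at 2 copies, then by chr4:40476189-44318106 at 0.33 and chr4:44324144-50150153 at 0.20, both called at 3 copies. Levels thus rose in 3 steps after the end of the first segment, by 0.46, 0.14 and 0.14 on the log2 scale. They came down again in 3 steps. The first, of -0.13, divided the 2 segments called at 3 copies, the next, of -0.29, led into chr4:50150154-63231877 at -0.09 and 2 copies, and the third, of -0.30, led back to 1 copy in chr4:63235266-146117266 at -0.39. The segment before and the segment after the interruption differed by less than 0.095, the SD of log2 among the 96 autosomal segments of this line called at 2 copies. The calls in the middle rest on small margins: the segment at 0.1923 was called at 2 copies and the segment at 0.2016 at 3 copies.

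By length, 72.3% of the chromosome was called lost in 14837T, 21.3% was called at 2 copies and 6.38% was called gained. Of its 10 segments 5 were called lost, where 30.8% of the 224 autosomal segments of the line were called lost (69). The range of log2 within the chromosome was 1.00, wider than in 15376T. The BAF of the 9 segments that had one lay between 0.015 and 0.13, and the segments called at 2 and 3 copies, with BAF of 0.049, 0.015, 0.065, 0.032 and 0.074, were within the range of the lost ones, 0.052 to 0.13, or below it. All 9, among them the segments called at 2 and 3 copies, were called with 0 copies of the minor allele. How common this call was on the other autosomes was not counted, so no loss of an allele is read from it. Over all autosomal segments the median BAF was 0.077 in 15376T and 0.062 in 14837T, so low values of BAF were not particular to lost segments. The number of variant sites behind each BAF is unknown.

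**Figure D1:**
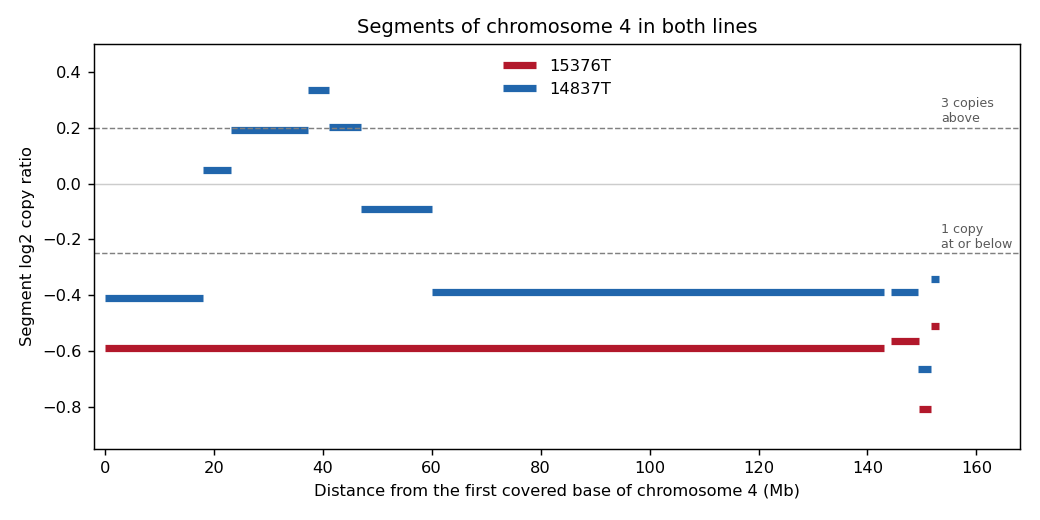
Segment log2 copy ratio (vertical axis) against distance in Mb from the first covered base of chromosome 4, with 15376T in red and 14837T in blue and the call thresholds as dashed lines. The long red segment stays at -0.59, whereas the blue segments rise from -0.41 to 0.33 and return to -0.39, and both lines dip near the end.

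Set side by side, log2 was lower in 15376T in 11 of the 12 blocks. The share of all autosomal blocks lower in 15376T by any amount was not counted. The blocks before the gap without bins share a single segment of 15376T, so they are not separate readings of that line. The difference was at least 0.3 in 6 blocks, against 19.8% of the 363 autosomal blocks (72). Since the chromosome was chosen for this pattern, the count is a description. The 6 blocks were the 5 blocks of the interruption, with differences (15376T minus 14837T) of -0.64, -0.78, -0.92, -0.79 and -0.50 in chromosome order, and a sliver of 8508 bp near the end, where the borders of the lines did not coincide, at -0.46. By length they made up 27.7% of the chromosome, and such blocks made up 14.7% of the autosomes. The largest difference was in the first block at 3 copies, and 99.2% of the autosomal length had a smaller absolute difference. In the blocks lost in both lines, the differences were smaller, from -0.14 to -0.20, except for that sliver, which was also at 1 copy in both lines, and for the block at chr4:152412748-152699136, where 14837T was the lower line and the difference was 0.10.

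The stretch lost in 15376T alone measured 42.0 Mb and ranked second among the autosomes, after chromosome 9 with 72.8 Mb. The stretch lost in both lines measured 109.6 Mb. There the mean log2 was -0.59 in 15376T and -0.40 in 14837T, a difference of -0.19. In the 46 blocks of other autosomes lost in both lines (407 Mb) the means were -0.56 and -0.44, a difference of -0.12. On chromosome 7, lost over 100% of its length in 15376T and 99.5% in 14837T, the difference in the shared stretch was -0.08, and on chromosome 16, lost over its whole length in both lines, it was -0.15. Of the 9 other autosomes with a stretch lost in both lines, log2 there was lower in 15376T on 6 (396 Mb) and higher on 3, chromosomes 5, 8 and 10 (10.8 Mb).

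Read depth gave the same order. It comes from the same reads as log2, so it is a description and not separate support. Both lines had the same 13588 bins on chromosome 4. Over the 11970 bins of the long segment of 15376T, mean depth was 29.8 in 15376T and 40.0 in 14837T. Each line was then scaled to its own autosomal segments called at 2 copies, a call that rests on log2, with mean depth of 46.0 and 47.5. The own depth ratio, the log2 of scaled depth in 15376T over that in 14837T, was -0.38 over these bins, beside a log2 difference of -0.33. Over the 1618 bins beyond the gap, depth was 28.0 and 33.5, the own depth ratio was -0.21 and the log2 difference was -0.17. The lines were thus closer beyond the gap, where both were called lost throughout, than over the long segment, which includes the interruption of 14837T.

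Within 14837T, the own depth (log2 of segment depth over the 2-copy level of that line) followed the calls, which were made from the same reads. It was -0.41 in the first segment, then -0.09, 0.12, 0.50, 0.16 and -0.02 through the interruption, and -0.42 in the long segment after it. The segment at chr4:40476189-44318106, with a mean depth of 67.0, stood above its log2 of 0.33. In 15376T the same intervals lie inside a single segment, and only the listed genes show the depth along it. Median depth of genes with at least 5 bins was 39.1 before the interruption (49 genes), 31.0, 37.4, 35.9, 30.7 and 35.8 within it (12, 26, 64, 37 and 46 genes), and 32.3 after it (501 genes). Of the 5 medians within the interruption 3 lay between those on either side of it, and 2 were lower than both. Gene depths leave out bins between genes, so they are not on the scale of the segment depths of 14837T.

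**Figure D2:**
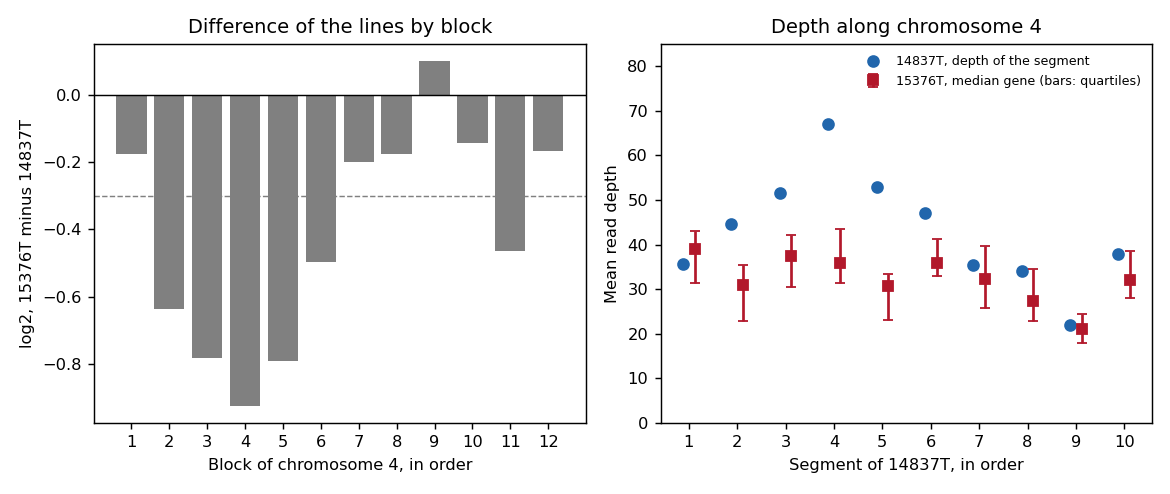
Left, log2 of 15376T minus 14837T for the 12 blocks in chromosome order, drawn with equal widths although block 11 spans 8508 bp, with the dashed line at -0.3. Right, mean read depth by segment of 14837T: blue points are the segments of 14837T, and red squares are the median listed gene of 15376T in the same interval (bars, quartiles). Where the blue points climb from 44.5 to 51.5 and 67.0, the red squares go from 31.0 to 37.4 and 35.9. Segment means and gene medians are not on the same scale.

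The borders of the interruption were placed by their nearest protein-coding genes in RefSeq (GRCm38.p6). The first, where the loss ended in 14837T, fell between Nkain3, whose product interacts with the sodium pump, and Prdm13, a transcription factor gene, 448 kb from each. The second fell within Manea, a mannosidase gene, between Fut9 and Epha7. The third, the entry into 3 copies, lay 0.035 kb beyond the end of Tmem215 and 206 kb before Aptx, a DNA repair gene. The fourth fell within Melk, a mitotic kinase gene, with Pax5 on the right. The fifth lay 304 kb beyond Grin3a, a glutamate receptor gene, and 1066.5 kb before Cylc2. The sixth, where the loss resumed, fell within Col27a1, a collagen gene, with Kif12 and Orm1 on either side. Adjacent segments touched without a gap at the first and the fifth border, and were 500 to 6037 bp apart at the other 4. These are distances between segment edges and do not give the resolution of a break. The distances to genes are likewise counted from segment edges, and a break may lie elsewhere.

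The third border, where 3 copies begin in 14837T, is shown by the promoters of the genes on its sides, taken from RefSeq (GRCm38.p6) at the listed start nearest to the border. For both genes 2 starts are listed. The starts used lie inside the spans of the genes, so the windows need not be the main promoters. Each window holds 250 bases before the start in lower case and the 50 bases after it in capitals, written along the strand of the gene. The Tmem215 window (chr4:40472880-40473179, plus strand) lies at 2 copies in 14837T, 2.51 kb before the border, and the Aptx window (chr4:40702867-40703166, minus strand) lies at 3 copies, 227 kb beyond it. Both lie at 1 copy in 15376T.
Tmem215: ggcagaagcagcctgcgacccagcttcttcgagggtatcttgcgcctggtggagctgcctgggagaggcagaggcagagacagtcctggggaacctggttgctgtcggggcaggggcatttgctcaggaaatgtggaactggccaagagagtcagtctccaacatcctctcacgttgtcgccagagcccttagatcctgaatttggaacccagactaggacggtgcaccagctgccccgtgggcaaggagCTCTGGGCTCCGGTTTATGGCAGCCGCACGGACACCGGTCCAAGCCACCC
Aptx: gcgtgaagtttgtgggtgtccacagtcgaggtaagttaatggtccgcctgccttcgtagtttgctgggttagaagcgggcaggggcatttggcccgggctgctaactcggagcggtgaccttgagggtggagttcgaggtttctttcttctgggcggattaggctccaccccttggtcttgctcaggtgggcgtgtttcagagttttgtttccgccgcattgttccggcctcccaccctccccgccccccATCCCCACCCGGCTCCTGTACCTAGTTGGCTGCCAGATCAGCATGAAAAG

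The windows hold 61.3% and 59.0% G and C and 12 and 16 CG pairs. The medians over 2053 promoters of the chromosome were 54.7% and 8, so both windows were richer than the median in G and C and in CG pairs.

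The first block at 3 copies, chr4:40476189-44318106, held 166 RefSeq genes in 3.84 Mb. It also held duplicated genes, among them the chemokine genes Ccl27a and Ccl21 and the interleukin 11 receptor genes Il11ra1 and Il11ra2, whose reads cannot be assigned with certainty. Of the 114 rows of 15376T in this block, 34 had a mean bin weight under 0.25, whereas 5.21% of all 1324 chromosome 4 rows did (69). The weight is the confidence that the software gave to a bin. Median depth in 15376T was 51.0 for these 34 rows and 34.2 for the others. In the same line Ccl27a had a depth of 68.0 and the Il11ra pair a median of 55.7. The part of these genes in the level of the block was not tested, because the gene table of 14837T does not list genes of the block.

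The second block at 3 copies, chr4:44324144-50150153, held 125 RefSeq genes, with a mean bin density of 101 per Mb against 202 in the first. Among its genes are Pax5, a transcription factor of B cells, Tgfbr1, a TGF-beta receptor that restrains epithelial growth, and Foxe1, a thyroid transcription factor. In 15376T, where these genes were called at 1 copy, their depth was 14.4 for Pax5 (15 bins), 33.3 for Tgfbr1 (10 bins) and 32.1 for Foxe1 (1 bin). The blocks called at 3 copies held 92 and 59 protein-coding genes in 3.84 and 5.83 Mb. The 3 blocks called at 2 copies were poorer in genes for their length than these. They measured 5.11, 14.1 and 13.1 Mb and held 17, 38 and 91 protein-coding genes. The last of them held the Mup cluster of major urinary proteins, 44 genes in RefSeq, of which 5 were listed in 15376T at a median depth of 89.7. Such clusters of near-identical copies are uncertain in depth.

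Genes of known roles were mostly lost in both lines. Of 56 names on the lists, 55 lay on chromosome 4 under that name, the other being an older symbol of Tut4, and all 55 were called at 1 copy in 15376T. In 14837T, 50 of the 55 were at 1 copy, 5 at 3 copies and 0 at 2 copies. The chromosome as a whole was lost over 72.3% of its length in that line, and the lists were made with this known, so nothing particular to them is read from the count. Over these 55 genes, depth in 15376T ranged from 9.08 for Mycl to 53.8 for Ccne2.

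Among growth and cell-cycle brakes, 20 of 21 were lost in both lines. Cdkn2a and Cdkn2b, which encode inhibitors of the G1 kinases, lay in the long segments at log2 of -0.59 and -0.39. In 15376T their depth was 21.8 over 3 bins and 12.6 over 2 bins, beside 49.8 over 7 bins for Mtap, their neighbor in methionine salvage. Depths over so few bins vary with capture, and 14837T lists none of the 3. Arid1a, a subunit of chromatin remodeling complexes, had a depth of 25.4 over 22 bins. The exception was Fancg, a gene of DNA crosslink repair, which was at 1 copy in 15376T with a depth of 31.2 and at 3 copies in 14837T.

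Among growth drivers, 16 of 18 were lost in both lines, among them Jun, Jak1 and Mtor. Melk and Pax5 were the exceptions, with 1 copy in 15376T and 3 copies in 14837T. Melk spans the border between both blocks called at 3 copies, so its call did not depend on the side. All 5 genes that handle let-7 or load microRNAs, Lin28a, Tut4, Ago1, Ago3 and Ago4, were lost in both lines at -0.59 and -0.39. Of the 4 genes listed under TGF-beta and Wnt, Wnt4 and Dvl1 were lost in both, and Tgfbr1 and Foxe1, the latter a thyroid factor that is no part of these pathways, were at 3 copies in 14837T. The 7 genes of TNF receptors, from Tnfrsf1b to Tnfrsf18, were lost in both lines and lay in 3 blocks on either side of the gap and of the distal low segment.

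Genes listed in both tables allow the lines to be compared gene by gene. The tables list a gene only where the absolute log2 of its segment is at least 0.40, so that 15376T lists 1324 rows on the chromosome and 14837T lists 89. The first segment of 14837T, at -0.41, is just inside this limit and its long later segment, at -0.39, is just outside. Of 90 rows in both tables, 87 had equal numbers of bins, 69 in the first block and 18 near the end. The 3 others, Kcnab2 and both parts of Mmel1, were cut by different borders in the lines. The 87 genes were lost in both lines by the rule of listing, so their ratios measure only how far the losses differ in depth.

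Depth, unscaled, was lower in 15376T in 83 of the 87 genes (95.4%), where it was lower in 83.0% of the 3343 genes of the other autosomes (2776) and in 85.9% of the 2558 of them lost in both lines (2198). The median own depth ratio was -0.18 (quartiles -0.32 and -0.09, range -0.75 to 0.57), beside a median log2 difference of their segments of -0.18. It was at or below -0.3 in 25 genes, 28.7%, against 15.3% of the 3430 autosomal genes listed in both lines with equal bins (524). It was at or above 0.3 in 1 gene, Gm833 with 2 bins, where 2.86% of the autosomal genes were (98). On the other autosomes the median ratio was -0.12 over 3343 genes, and -0.15 over those lost in both lines, of which 476 were at or below -0.3 (18.6%). With depth scaled to all autosomal segments instead, the median ratio of the 87 genes was -0.09. On that scale, a count added after the data were seen, 15 of the 87 genes and 8.86% of the autosomal genes were at or below -0.3.

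In the first block, 4 of the 5 lowest ratios among genes with at least 5 bins lay next to the border where the loss of 14837T ended. Of genes with fewer bins, Gdf6 (3 bins, 11.4 Mb away) was at -0.70 and 6330407A03Rik (1 bin, 17.5 Mb away) at -0.65. Nkain3, the last gene before it, had a depth of 14.5 in 15376T and 25.1 in 14837T over 12 bins, a ratio of -0.75. Atp6v0d2, a subunit of the vacuolar proton pump, had 32.4 and 51.0 over 10 bins (-0.61). Cpne3, a copine, had 38.8 and 57.8 over 14 bins (-0.53). These are 3 of the 5 lowest ratios among the 62 genes of the chromosome with at least 5 bins, and the other 2 were Slc7a13 (-0.51) and Osgin2 (-0.49). Slc7a13, an amino acid transporter gene, is also close to the border, and Osgin2 lies 5.21 Mb from it.

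Within 2.5 Mb of that border, a distance chosen after the ratios were seen, all 10 listed genes were at or below -0.3. Their median ratio was -0.45 (range -0.75 to -0.33). Median depth of these 10 genes was 35.6 in 15376T and 52.0 in 14837T. Besides the 4 above they were Cnbd1, Cngb3, Rmdn1, Wwp1, Ttpa and Ggh, and each had at least 5 bins. Of the 59 genes further from the border 10 were at or below -0.3, and their median was -0.15, with medians of depth of 40.4 and 44.3. Depth in 14837T was above the 2-copy level of the line, 47.5, at 6 of the 10 genes near the border and at 23 of the 59 others, although all lie in a segment called at 1 copy. In 15376T it was above 46.0 at 1 of the 10 and at 11 of the 59. Neighbors such as Ttpa and Ggh are captured by separate bins but share a library, so they are not replicates of each other.

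**Figure D3:**
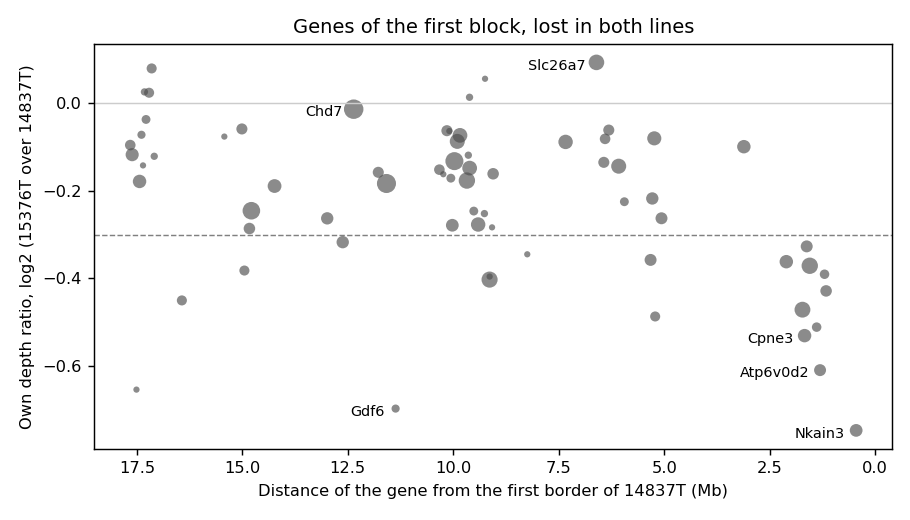
Own depth ratio (log2 of scaled depth, 15376T over 14837T) of the 69 genes of the first block against their distance in Mb from the border where the loss of 14837T ends, at the right, with larger points for more bins and the dashed line at -0.3. The 10 genes within 2.5 Mb of the border all lie at or below -0.33, whereas the other 59 have a median of -0.15.

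The highest ratios of genes with at least 5 bins were near 0. Slc26a7, an anion exchanger gene, had a depth of 34.7 in 15376T and 33.6 in 14837T over 21 bins, a ratio of 0.09. Sdr16c6 and Sdr16c5, neighbors of the retinol dehydrogenase family near the start of the chromosome, were at 0.08 and 0.02. Chd7, a chromatin remodeler, had 32.1 and 33.5 over 38 bins (-0.01). Nphp4, a gene of the primary cilium, lay near the other end at -0.05. At 2 of these 5 genes, Slc26a7 and Sdr16c6, depth was higher in 15376T. Slc26a7 lies 6.61 Mb from the border, in the same segments as Nkain3, so ratios of genes with at least 5 bins spanned 0.84 within a pair of called segments.

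Near the end of the chromosome both lines had a further drop, the distal low segment. In 15376T it spanned chr4:152699637-154893410 (2.19 Mb, 202 bins) at a log2 of -0.81 and a depth of 19.1. In 14837T it spanned chr4:152412748-154883723 (2.47 Mb, 229 bins) at -0.66 and 22.0. It was lower than its left neighbor by 0.24 and 0.28 and lower than its right neighbor by 0.29 and 0.32 on the log2 scale, in the order 15376T and 14837T. In own depth the drop was larger, to -1.27 and -1.11, and its difference from the left neighbor was -0.55 and -0.63 and from the right neighbor -0.74 and -0.78. The drops in log2 exceeded the SD of 2-copy segments, 0.090 and 0.095, in both lines.

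This segment was the lowest of its size in either line, with 0 lower among 40 autosomal segments of 100 to 400 bins in 15376T and 77 in 14837T. It had been picked as the lowest of the chromosome by the same log2, so its rank is a description. Among all segments called lost, 2 of 42 and 2 of 69 were lower. It had no BAF in either line, as was the case for 25 of 183 and 31 of 224 autosomal segments. Bins were sparser in it, at 92.1 and 92.7 per Mb, than in its left neighbor (180 and 182) and its right neighbor (360 and 366), although the whole long segment of 15376T had 83.7. The drop was present in both lines at nearly the same place. Elsewhere on the chromosome, the sparsest segments of 14837T, at 37.9 and 34.7 bins per Mb, lay at a log2 of 0.05 and 0.19. The part of the bin density in the drop was not tested.

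The left border of the drop differed between the lines and its right border nearly coincided. In 14837T it began inside Kcnab2, a potassium channel subunit gene, and in 15376T it began inside Gm833, with Nphp4 and Ajap1 on either side. In both lines it ended inside Mmel1, a membrane metallopeptidase gene, 2.65 kb before Prxl2b in 15376T and 11.5 kb before it in 14837T. The block between the left borders, which was low in 14837T only, held 2 listed genes that went in different directions. Nphp4 had a depth of 22.8 in 15376T and 24.3 in 14837T over 31 bins, and Gm833 had 21.6 and 15.0 over 2 bins. The depth of Nphp4, the gene with more bins, was thus alike in both lines although its segments were called at different levels.

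Inside the drop, all 16 genes listed in both lines had lower depth in 15376T, as had most genes of the other autosomes (83.0%). Their median own depth ratio was -0.23, beside a log2 difference of -0.14 between the segments. The ratio was at or below -0.3 in 5 of the 16. On the other autosomes it was so in 18.6% of the 2558 genes lost in both lines (476). With so few genes in the drop, nothing is read from the count. Trp73, a relative of p53 that restrains growth, had a depth of 15.5 in 15376T and 16.6 in 14837T over 18 bins (-0.05). Prdm16, a zinc finger gene known from brown fat and leukemia, had 19.7 and 21.0 over 21 bins (-0.05). Both lay far under the 2-copy level of the lines and differed least between them. Dffb, the nuclease of apoptotic DNA cleavage, had 24.5 and 34.7 over 7 bins (-0.46), and Lrrc47 had 21.1 and 28.3 over 6 bins (-0.38). Megf6, the gene with the most bins in the drop (35), had 18.0 and 21.4 (-0.20). Depth within the drop ranged in 15376T from 9.95 for Tprgl to 41.9 for A430005L14Rik, and each of these was measured over 3 bins.

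Beside the drop, genes of 15376T with at least 5 bins had a median depth of 27.3 on the left (53 genes, quartiles 22.8 and 34.5) and 32.1 on the right (36 genes, quartiles 28.0 and 38.5). The left genes were taken up to the border of 14837T, so Kcnab2 and Nphp4, at 28.0 and 22.8 in 15376T, were in no group. Inside the drop of 15376T the median was 21.1 (13 genes, quartiles 18.0 and 25.1). The quartiles on the right did not overlap those inside, and the quartiles on the left did. Depth was under the left median at 12 of the 13 genes inside.

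**Figure D4:**
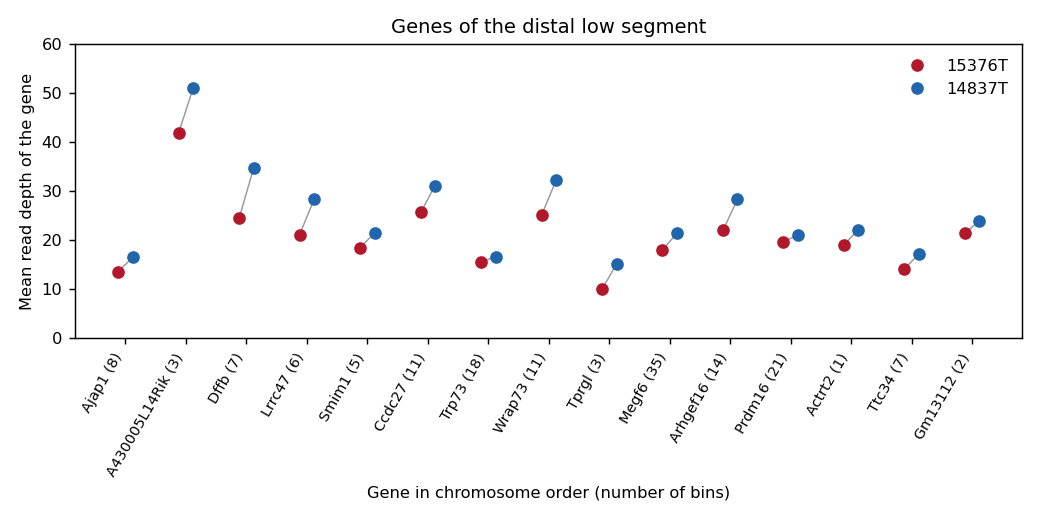
Mean read depth of 15 of the 16 genes of the distal low segment listed in both lines, in chromosome order with the number of bins in brackets, for 15376T (red) and 14837T (blue). Every blue point lies above its red partner, by little at Trp73 and Prdm16 and by more at Dffb and A430005L14Rik.

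The gap of 1.42 Mb before the last segments was the same in both lines. It spans a cluster of zinc finger genes with many similar copies, among them Zfp987, Zfp600 and Zfp982, and no bin was placed there. The log2 stepped by 0.02 in 15376T and by 0.00 in 14837T across it, so the level of the loss was alike on both sides in each line. The copy number inside the gap is not measured in these tables.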

How the data were processed

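DNA of the PDAC lines 15376T and 14837T was studied by whole-exome sequencing (WES), with 1 library per line and no replicate. Capture used a human exome library, from NimbleGen by the methods and from Agilent by the labels, although the DNA is from mouse. The submitters' processing notes name the build mm10, and the aligner, the copy-number reference and the filters are not given in the sources used here. A segment table and a gene table were deposited per line. In both, the deposited log2 is the ratio of coverage to that reference on the log2 scale, and genes carry the value of their segment. The deposited BAF, given per segment, is a fraction. Depth was deposited as a mean coverage signal that is not normalized. The deposited weight is a score of confidence. It was used as a mean per bin, and to weight the means of depth and log2 over the long segment and beyond the gap. Copy numbers were taken as called, and followed log2 thresholds of -0.25 and 0.20 with 0 exceptions. Starts were written counting from 1.

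Segments of both lines were intersected into blocks, and levels were weighted by length unless bins or the deposited weight are named. Own depth is the log2 of depth over the bin-weighted mean depth of autosomal segments called at 2 copies in the same line, 46.0 in 15376T and 47.5 in 14837T. The own depth ratio was formed for genes in both tables with equal numbers of bins, and called at an absolute value of 0.3. Named genes were the nearest protein-coding genes at each border, the list genes, and the 5 highest and 5 lowest ratios among genes with at least 5 bins. The microRNAs, the Mup, Ccl21, Ccl27a and Il11ra genes, the genes within 2.5 Mb of the first border, and Gm833, Kcnab2, Dffb, Lrrc47, Gdf6, 6330407A03Rik, Megf6, Tprgl and A430005L14Rik were named after their values were seen. Some alleles and genes that the rules would name are not reported here. The chromosome, the lists and the tests were chosen with earlier results of these data known. Gene and microRNA positions and sequences came from RefSeq on GRCm38.p6, the assembly behind mm10. Analyses used Python 3.11.15, numpy 2.4.6, pandas 2.3.3 and matplotlib 3.10.9, and the steps were tested on simulated data. The alternatives were other loss thresholds, recentred log2, weights by bins, minimum bins per gene and another depth scale. The tables give neither read counts nor the spread between bins, so segments have no interval, and the SD of log2 over the autosomal 2-copy segments, 0.090 in 15376T (103 segments) and 0.095 in 14837T (96 segments), served as the spread.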

Additional observations from a re-analysis of the deposited data

How the results depend on the processing

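Of 53 alternative values, 49 stayed within the spread of 2-copy segments or, for shares and counts, within 1.5 times the reported value. Many of them could hardly differ. Recentring moved all 12 blocks by the same small amount, no segment of the chromosome was shorter than 1 Mb, and asking for equal gene ends left the median ratios unchanged. The count is therefore no measure of robustness. The 4 exceptions were as follows. With loss set at a log2 of -0.5, the share of chromosome 4 called lost in 14837T was 1.63% in place of 72.3%, because its long lost segments lie between -0.34 and -0.41, while 15376T remained at 100% lost under every threshold tried. The length-weighted median log2 of chromosome 4 in 14837T was -0.39, where the mean was -0.26. The number of genes with a lower own depth in 15376T fell from 25 to 7 at a threshold of 0.5, and to 15 with depth relative to all autosomal segments, a count added once the data had been seen. That scale raises every ratio by 0.09, just inside the spread of 0.095, so the median over the 87 genes was -0.09 in place of -0.18. The differences of the 12 blocks kept their sign after recentring on autosomal medians of -0.04 and -0.05, and the distal low segment remained the lowest of the chromosome, at -0.77 and -0.61. No paired analysis was possible because there was only 1 WES library for a line. The depth of single bins is not given, so changes shorter than a segment could not be measured, and genes of 14837T in segments nearer to 0 than 0.40 have no values of their own.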

Other observations

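Over the whole chromosome, chromosome 4 had the second lowest mean log2 of the autosomes in 15376T, after chromosome 16, and the sixth lowest in 14837T. Loss was called in 14837T alone over 0 Mb of chromosome 4, whereas 90.5 Mb of chromosome 13 and 50.6 Mb of chromosome 10 were lost in that line alone, so the direction of the difference was not the same on all chromosomes. In the chromosome 4 blocks lost in both lines, the absolute difference of log2 was at the 60.6th percentile of autosomal length for the first block and at the 64.4th for the long block after the interruption.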
